A study of Homo sapiens with 9 samples.

Results

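The replication-dependent histone genes encode the core histones H2A, H2B, H3 and H4 and the linker histone H1 that package newly copied DNA. They were taken as every gene symbol of the form HIST1H to HIST4H in the count files, which gave 73 of the 25680 symbols, from 75 transcript rows. Where a symbol had several RefSeq rows, the row with the highest total stood for the gene. The counts came from the line SKNO-1, grown from a human acute myeloid leukaemia with the AML1-ETO fusion (RUNX1 joined to RUNX1T1). There were 3 groups of 3 libraries: control cells (labelled EV), cells with the shRNA SH2 and cells with the shRNA SH3, both directed at ASXL2. All groups carried the fusion, the labels do not explain EV, and the study describes its control as a control shRNA. Each group held libraries numbered 1, 13 and 25, numbers the labels do not explain. The questions here were how the histone genes stood in each group and how they differed between the numbers.

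Most of these genes lie in a large cluster on chromosome 6 (HIST1) and a smaller one on chromosome 1 (HIST2), have no introns, and are transcribed strongly while DNA is copied. Their mRNAs usually end not in a poly(A) tail but in a short stem-loop bound by the protein SLBP, so a library made by poly(A) selection recovers them poorly. A subset also has a poly(A) signal further downstream and can give polyadenylated mRNAs, which are best known from cells that have stopped dividing or are differentiating. As the study's methods describe poly(A)-selected, unstranded libraries, the values below are levels of histone RNA that was recovered by this selection, and the bulk of the S-phase histone mRNA was not measured.

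The stem-loops are shown because they decide how the RNA ends. A motif of 16 bases, GGNNNTNTNNANNNCC on the coding strand with 6 paired stem positions (G-T pairs allowed), was searched in the 100 bases of genome after the stop codon (GENCODE on GRCh37). It was found in 62 of the 65 members with such a window, or 95.4%. The share was 0.0359% of the 19488 windows of other protein-coding genes, and 0.353% of all 19553 windows, members included. The stem-loops of the 5 genes with the highest mean level, and of 1 H4 gene, are given 5′ to 3′ with the 16 bases in capitals.
HIST1H2BK: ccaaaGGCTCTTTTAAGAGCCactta
HIST1H2AC: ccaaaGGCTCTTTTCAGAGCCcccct
HIST2H2BE: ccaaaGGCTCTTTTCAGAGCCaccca
HIST1H1C: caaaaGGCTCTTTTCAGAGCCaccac
HIST1H2BD: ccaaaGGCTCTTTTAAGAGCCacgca
HIST1H4H: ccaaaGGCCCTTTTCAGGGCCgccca
The form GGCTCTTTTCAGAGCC was held by 38 members of the types H1, H2A, H2B and H3, while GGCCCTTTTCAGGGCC and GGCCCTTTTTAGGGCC were held by 8 and 4 H4 genes. HIST1H2AC and HIST2H2BE, which differed between libraries, had the same 16 letters as most members, and HIST1H2BD had those of HIST1H2BK. In GENCODE, 16 of the 62 members with a stem-loop had a transcript ending more than 100 bases of genome past it. Among them were HIST1H2AC, HIST1H2BC, HIST1H2BD and HIST2H2BE. This distance includes any introns, and whether such a transcript holds the stem-loop was not checked.

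The promoters of the 4 members that differed between the numbers are shown because those of HIST1H2AC and HIST2H2BE are shared with a neighbour that did not pass the test. Each is the 200 bases before the RefSeq start (GRCh38.p14), 5′ to 3′ on the gene's strand, with CCAAT boxes, TATA boxes and octamers in capitals.
HIST1H2AC (chr6:26123972-26124171, plus strand): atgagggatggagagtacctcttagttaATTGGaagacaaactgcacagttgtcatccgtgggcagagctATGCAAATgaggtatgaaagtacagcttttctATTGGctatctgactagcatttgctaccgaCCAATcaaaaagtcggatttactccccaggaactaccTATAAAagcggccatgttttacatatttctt
HIST1H2BD (chr6:26157921-26158120, plus strand): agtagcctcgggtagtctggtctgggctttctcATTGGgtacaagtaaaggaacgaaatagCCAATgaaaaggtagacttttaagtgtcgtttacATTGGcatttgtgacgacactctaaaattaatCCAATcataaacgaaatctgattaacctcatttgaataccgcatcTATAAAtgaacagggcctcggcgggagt
HIST2H2BE (chr1:149886683-149886882, minus strand): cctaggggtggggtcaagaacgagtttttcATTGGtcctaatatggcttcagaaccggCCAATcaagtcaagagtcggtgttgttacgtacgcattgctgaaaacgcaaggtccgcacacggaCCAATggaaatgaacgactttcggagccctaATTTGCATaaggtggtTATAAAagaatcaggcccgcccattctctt
HIST1H1C (chr6:26056471-26056670, minus strand): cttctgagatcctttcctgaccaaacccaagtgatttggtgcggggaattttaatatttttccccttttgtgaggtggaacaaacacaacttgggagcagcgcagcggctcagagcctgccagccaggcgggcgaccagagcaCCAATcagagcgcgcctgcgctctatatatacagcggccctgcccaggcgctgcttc
Over the 250 bases before the start and on both strands, the CCAAT box (CCAAT) was in 85% of the 60 members with a promoter in the RefSeq table and in 33% of 27305 promoters of all genes. TATAAA was in 66.7% of the members and 11.1% of all promoters. The octamer ATTTGCAT, known as a site for OCT1 (POU2F1) in H2B promoters, was in 40% of the members and 1.66% of all promoters. HIST1H2AC starts 246 bases from HIST1H2BC on the opposite strand, and HIST2H2BE starts 236 bases from HIST2H2AC, so within each pair the genes have the same CCAAT boxes and octamer between them.

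The totals were 27714431 to 35406063 counts per library with 1 row per gene, and 3 counts were 0.0825 to 0.109 CPM (the count scaled to the library size after TMM normalization). ASXL2 was at 67.9 to 74.7 CPM in EV, 30.4 to 36.2 in SH2 and 26.9 to 41.1 in SH3, without overlap between EV and the knockdown libraries. MPO, CD33, ANPEP and KIT, markers of myeloid cells, were present, and RUNX1T1 was at 111 to 138 CPM. CD34 was at 0.068 to 0.309 CPM, and CD3E and HBB had no count. Libraries with the same number deviated together from their group means in all 9 comparisons (r = 0.47 to 0.774). One library stood apart in the histone genes. In SH3 25 the 6 most abundant members held 67.3% of the histone counts against 77.3% to 82.6% in the other libraries, and the 51 members under the filter summed to 6.19 CPM against 3.30 to 4.99. Values without SH3 25 are given below for the members' medians and for the named members that it moved most.

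Histone RNA was scarce in these libraries. The 73 genes together had 1391 to 2662 counts per library, and their summed level was 43.1 to 85.5 CPM. By type, H2B genes held 60.3% of all histone counts, H2A genes 19.6%, H1 genes 12.9%, H3 genes 4.3% and H4 genes 2.93%. For comparison, the single replication-independent gene H3F3B, which encodes H3.3 and has a poly(A) tail, had a mean of 727.5 CPM. This value is not scaled to length. Means of the 12 replication-independent histone genes ran from 0.498 CPM (H3F3C) to 976 CPM (H2AFY), with H3F3A at 38.3 CPM. Of the 73 members, 22 passed the filter on low counts, 51 did not, and 10 of those had no count in any library, among them HIST1H1A, HIST1H2AA, HIST1H2BA and HIST3H2A. For members whose reads can be told apart, a count of 0 in a library allowed up to the 3 counts given above. HIST2H3A, HIST2H3C, HIST2H4A and HIST2H4B also had no count. They shared 99.1% to 100% of their windows of a sequencing read's length with another member. The settings of the counting are not given, so a 0 for these genes does not show that their RNA was absent.

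**Figure D1:**
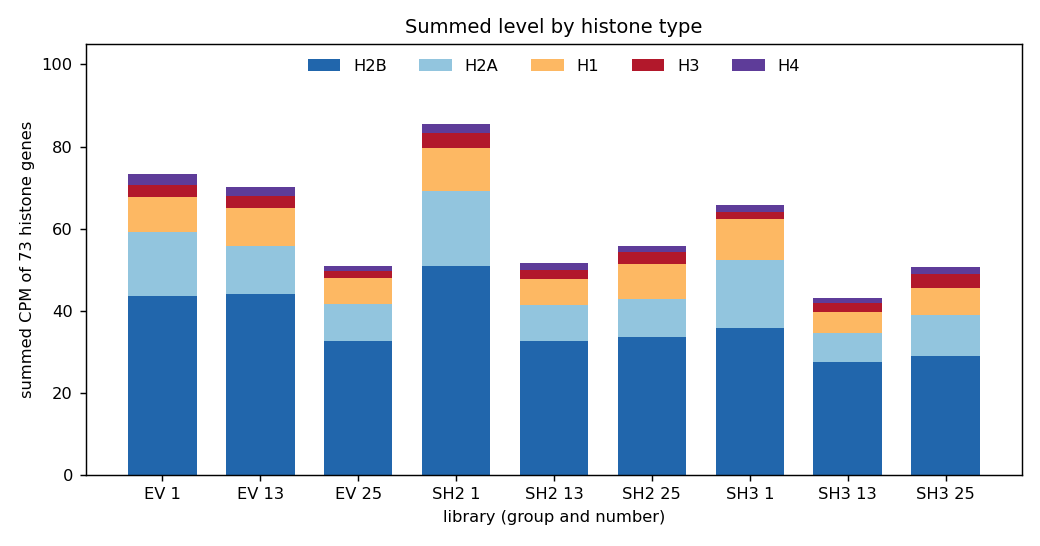
Stacked bars of the summed level in CPM of the 73 histone genes in each of the 9 libraries, coloured by histone type, with no error bar since each bar is 1 library. H2B genes make up the largest layer everywhere, and the total was highest in SH2 1 at 85.5 CPM and lowest in SH3 13 at 43.1 CPM.

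A few genes supplied most of this RNA. HIST1H2BK, an H2B gene on chromosome 6 (GRCh37 27114140 to 27114634, minus strand), had the highest mean at 18.7 CPM. It was followed by HIST1H2AC (8.17 CPM), HIST2H2BE (7.57 CPM), HIST1H1C (7.18 CPM), HIST1H2BD (3.90 CPM) and HIST1H2BH (1.86 CPM). These 6 held 78.1% of all histone counts. All but HIST1H2BH are known for polyadenylated forms, as is HIST1H2BC (mean 1.13 CPM), while HIST4H4, also known for one, was at 0 to 0.272 CPM. The next members were HIST2H2AC (0.977 CPM), HIST1H3H (0.817 CPM) and HIST1H2BJ (0.792 CPM). Of these 10 genes, 6 had an annotated form past the stem-loop, as did 16 of the 62 members with a stem-loop position. HIST1H2BK and HIST1H1C, although known for polyadenylated forms, had no such form annotated.

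Levels between genes can only be set side by side per length. Per kilobase of the representative GENCODE transcript, HIST1H2BK stayed first (37.8 CPM per kb), before HIST1H2AC (15.7), HIST1H1C (9.82), HIST1H2BD (8.02), HIST1H2BH (4.02) and HIST2H2BE (3.40), whose transcript is 2224 bases long. The RefSeq models on which the reads were counted could be longer than these transcripts for some members, which would lower their values per kilobase. HIST2H2BF, whose chosen row had a mean of 0.658 CPM and whose other row had 0.298 CPM, was the other member besides HIST1H2BD with more than 1 row. Near-identical copies made some counts uncertain. HIST2H2AA3 and HIST2H2AA4 had the same count in every library, 6 in all, and 16 of 70 members shared at least 1 window of a sequencing read's length with another member. For HIST2H2BE 2.5% of the windows were shared, all with HIST2H2BF, and for HIST2H2AC 12.4%, while HIST1H2AC, HIST1H2BC, HIST1H2BD, HIST1H1C and HIST1H2BK shared none.

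**Figure D2:**
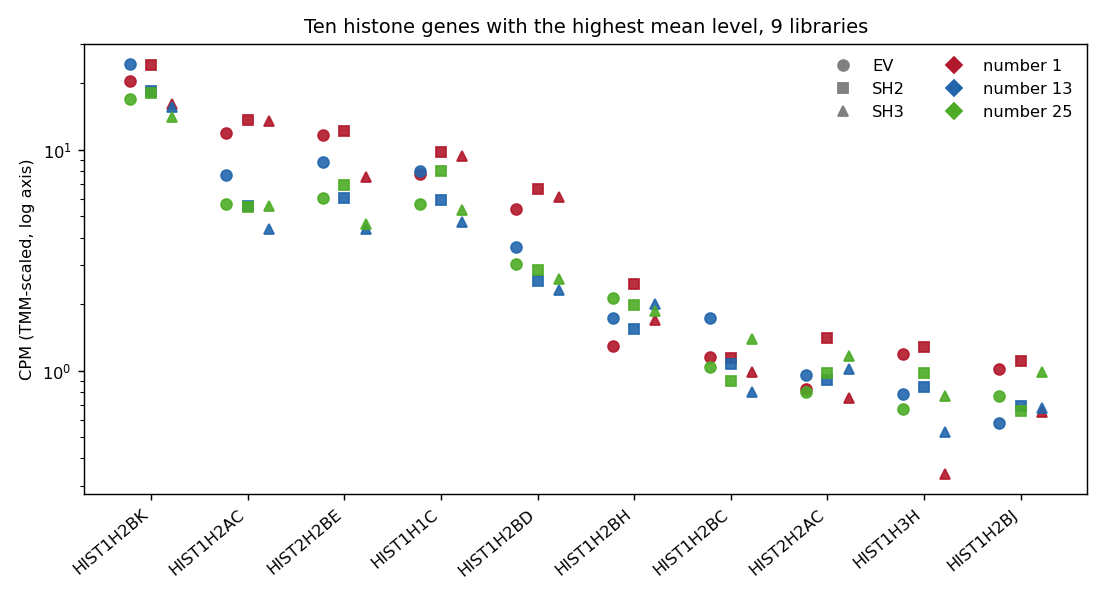
Levels in CPM (log axis) of the 10 histone genes with the highest means, each point 1 library, with the group as shape and the label number as colour. The red points (number 1) of HIST1H2AC and HIST1H2BD lie above all other libraries, and those of HIST1H2BC and HIST2H2AC do not.

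HIST1H2AC, HIST1H2BD, HIST2H2BE and HIST1H1C were higher in the libraries numbered 1 than in those numbered 13 and 25, by 2.29-, 2.15-, 1.71- and 1.44-fold, and 0 members were lower. These 4 were 4 of the 22 members tested. Over all 14199 genes, 46.3% passed the same test in either direction, with 24.1% higher and 22.2% lower in number 1, so a called share of this size was not particular to the members. The fit was edgeR's quasi-likelihood test with number and group as terms, and a gene was called at a Benjamini-Hochberg adjusted p under 0.05. The 3 libraries of a number, 1 from each group, stood as its replicates. No number was repeated within a group, so these p-values measure the spread across the groups.

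HIST1H2AC (NM_003512, GRCh37 chromosome 6, 26124373 to 26139344, plus strand) encodes an H2A. Its level in number 1 was 11.9 CPM in EV, 13.7 in SH2 and 13.5 in SH3. In number 13 it was 7.72, 5.58 and 4.35 CPM, and in number 25 it was 5.70, 5.51 and 5.57 CPM, in the same order of groups. All 3 libraries numbered 1 were thus above the other 6. The log2 difference was 1.19 (SE 0.14, adjusted p = 0.000336 by edgeR).

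HIST1H2BD (NM_138720, GRCh37 chromosome 6, 26158350 to 26171577, plus strand) encodes an H2B and lies near HIST1H2AC. It was at 5.39, 6.63 and 6.09 CPM in number 1, at 3.64, 2.54 and 2.32 in number 13, and at 3.03, 2.84 and 2.58 in number 25. Its libraries numbered 1 also lay above all others. The log2 difference was 1.10 (SE 0.15, adjusted p = 0.00058 by edgeR). The ratio of means between number 1 and the rest was 2.14 for this row and 2.04 for its other row (NM_021063). HIST1H2AC and HIST1H2BD moved closely together over the 9 libraries (Pearson r of log2 CPM 0.991, a description over libraries that share numbers). Such non-overlap was seen for 2 of the 22 tested members, and for 14.4% of all tested genes. In the other direction it was seen for 0 of the 22, against 12.1% of all tested genes. HIST1H2AJ, under the filter, lay below in number 1 (0.067 to 0.165 CPM) and at 0.2 to 0.451 CPM in the rest, a range close to the level of 3 counts.

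HIST2H2BE (NM_003528, GRCh37 chromosome 1, 149856009 to 149858232, minus strand) encodes an H2B whose annotated transcript extends 1729 bases past its stem-loop. It was at 11.6 CPM in EV, 12.2 in SH2 and 7.56 in SH3 for number 1, and at 4.38 to 8.81 CPM in the other 6 libraries. The ranges overlapped, since EV 13 was above SH3 1, but number 1 was the highest within each group. The log2 difference was 0.77 (SE 0.12, adjusted p = 0.0012 by edgeR). HIST1H1C, which encodes the linker histone H1.2, was at 7.78, 9.78 and 9.40 CPM in number 1 and at 4.72 to 8.03 CPM in the rest. Its log2 difference was 0.53 (SE 0.16, adjusted p = 0.0217 by edgeR). EV 13 was above EV 1 in this gene, and the call was lost when EV 25, SH2 1, SH2 13, SH3 1 or SH3 25 was left out, with log2 differences of 0.34 to 0.55.

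The neighbours on the other side of the shared promoters did not pass the test. HIST1H2BC, the H2B gene beside HIST1H2AC, was at 1.16, 1.14 and 0.987 CPM in number 1 and at 0.803 to 1.74 CPM in the rest, a log2 difference of -0.07 (95% interval -0.62 to 0.49, adjusted p = 0.846 by edgeR). HIST2H2AC, the H2A gene beside HIST2H2BE, was at 0.825, 1.41 and 0.749 CPM in number 1 and at 0.8 to 1.17 CPM in the rest. Its log2 difference was 0.02 (95% interval -0.50 to 0.55, adjusted p = 0.944 by edgeR). The ratio of HIST1H2AC to HIST1H2BC within a library was 10.3 to 13.7 in number 1 and 4.03 to 6.12 in the other libraries, without overlap. The ratio of HIST2H2BE to HIST2H2AC was 8.64 to 14.1 and 3.97 to 9.25, with overlap. These pairs were chosen with the values known and are given without a test. HIST1H2BC has an annotated form past the stem-loop like HIST1H2AC, and HIST2H2AC has none.

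HIST1H2BK, the member with the highest level and also known for a polyadenylated form, differed little between the numbers. It was at 20.6, 24.2 and 16.04 CPM in number 1, at 24.3, 18.4 and 15.6 in number 13 and at 17.0, 18.1 and 14.1 in number 25, in the order EV, SH2 and SH3. Its log2 difference was 0.18 (95% interval -0.04 to 0.40, adjusted p = 0.165 by edgeR), and it passed only when EV 13 was left out (adjusted p = 0.0366 by edgeR). HIST1H2AE, an H2A gene with few reads, was at 0.443 to 0.67 CPM in number 1 and 0.216 to 0.473 in the rest, with a log2 difference of 0.84 and an adjusted p of 0.054 by edgeR. It passed when SH3 25 (adjusted p = 0.0185), SH3 1 or EV 13 was left out and without the group term. HIST1H2BH, with a stem-loop and no annotated longer form, had a log2 difference of -0.06 (adjusted p = 0.829 by edgeR). The lowest members were HIST1H3C (-0.20) and HIST1H2BN (-0.12), neither past the test.

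Across the 22 tested members, 16 log2 differences were above 0 and 6 below, with a median of 0.16, against a median of 0.01 and 50.9% above 0 over all tested genes. With 1 library left out the members' median ran from 0.07 (without EV 25) to 0.48 (without SH3 25, over the 24 members then tested, 20 of them above 0). By annotated ending, 3 of the 9 tested members with a form past the stem-loop were higher (median 0.26). So was 1 of the 11 without (median 0.15), namely HIST1H1C, which is also known for a polyadenylated form. By type, 2 of 10 H2B, 1 of 5 H2A, 1 of 2 H1, 0 of 4 H3 and 0 of 1 H4 genes were higher. Over all tested genes 24.1% were higher, and the 4 members called were all among the 6 with the highest mean. The parts of ending, type and level were not tested. The summed level of all 73 genes was 74.8 ± 9.97 CPM (SD, n = 3) in number 1, 54.9 ± 13.8 in number 13 and 52.5 ± 2.85 in number 25. The range in number 1 (65.7 to 85.5 CPM) overlapped that of number 13 (43.1 to 70.1 CPM). HIST1H2AC, HIST1H2BD and HIST2H2BE together were at 27.2 to 32.4 CPM in number 1 and at 11.1 to 20.2 CPM in the rest, while the other 70 members were at 38.6 to 53.0 and 32.1 to 50.0 CPM. These 3 were picked by their values.

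**Figure D3:**
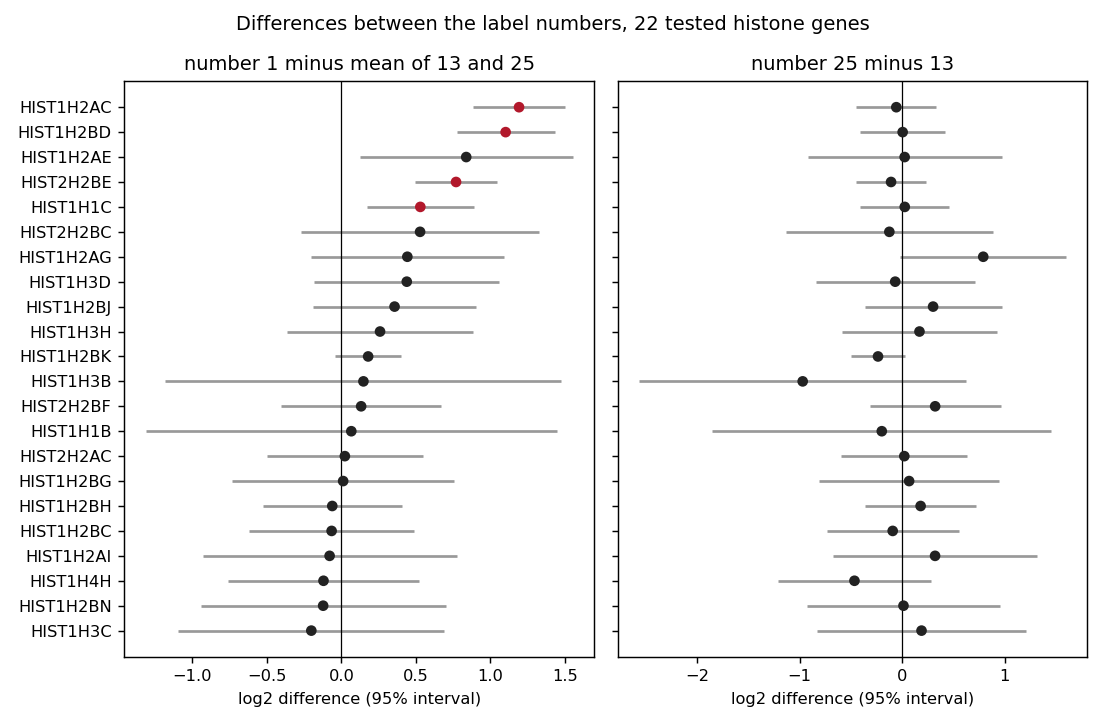
Log2 differences of the 22 tested histone genes between label numbers, with 95% intervals from the edgeR fit, red where the adjusted p was under 0.05. Left, number 1 against the mean of 13 and 25, with 4 genes called. Right, number 25 against 13, with 0 called.

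Between numbers 13 and 25, edgeR called 0 of the 22 members and 5.87% of all tested genes, a share so small that a count of 0 is no result about the members. At an unadjusted p under 0.05 the count of members was also 0. DESeq2 called 0 of the 8 members to which it gave an adjusted p, and 7.73% of all genes with one. The members' log2 differences (25 minus 13) ran from -0.97 for HIST1H3B and -0.47 for HIST1H4H to 0.32 for HIST2H2BF and 0.79 for HIST1H2AG, the last with an adjusted p of 0.22 by edgeR. Single libraries moved these values. With 1 library left out, HIST1H3B ran from -2.52 (without SH3 25) to -0.35 (without EV 25), HIST1H4H from -0.75 (without SH3 25) to -0.045 (without EV 25), HIST2H2BF from 0.065 (without SH3 13) to 0.51 (without EV 13) and HIST1H2AG from 0.42 (without SH3 13) to 1.11 (without EV 13). On its lowest row HIST2H2BF was at 1.31. HIST1H2AC (-0.06), HIST1H2BD (0.00) and HIST2H2BE (-0.11) were close to 0, with standard errors of 0.18, 0.19 and 0.15.

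Genes that act with the histone genes were called between the numbers as well. Of 24 genes of histone transcription and 3′ processing, 12 were lower and 2 higher in number 1. SLBP, which binds the stem-loop, had a log2 difference of -0.29 (SE 0.06), LSM10, part of the U7 particle that cuts histone RNA, of -0.44 (SE 0.07), and E2F1 of -0.34 (SE 0.06), while HINFP, a factor for H4 promoters, had 0.38 (SE 0.06). Of 20 S-phase genes, 14 were lower and 1 higher, with CDC45 at -0.55 (SE 0.08), CDC6 at -0.41 (SE 0.06) and CDT1, the exception, at 0.68 (SE 0.10). Of 16 histone chaperones, 10 were lower, such as CHAF1B (-0.38, SE 0.06) and IPO4 (-0.48, SE 0.08), and 2 higher, one being NAP1L1 (0.51, SE 0.09). All of the named differences passed edgeR's adjusted threshold. Over all tested genes the lower share was 22.2% and the higher share 24.1%, and for the processing genes the total called, 14 of 24, was near the 46.3% of all genes. The lists were not tested against other genes.

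Among the 12 replication-independent histone genes, 4 were higher and 5 lower in number 1, against 24.1% and 22.2% of all tested genes. H1F0, which encodes the linker histone H1.0 that is known to accumulate in resting and differentiating cells, was at 112, 106 and 198.7 CPM in number 1 and 43.0 to 86.0 CPM in the rest. Its log2 difference was 1.33 (SE 0.18, adjusted p = 0.000561 by edgeR). H1FX, which encodes another linker histone, had 0.52 (SE 0.10) and H3F3B had -0.42 (SE 0.07). Of 16 RNAs without a poly(A) tail, such as RMRP and RPPH1, 11 were in the files, 4 passed the filter and 0 were called between number 1 and the rest. Their sum was 1.77 to 8.67 CPM, highest in EV 13 (8.67) and SH3 25 (5.83), and their part in the histone values was not tested.

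Between the groups, edgeR called no histone gene, and so few of all genes that a count of 0 is no result about the members. Without a block it did not call ASXL2 either, at log2 differences of -1.03 for SH2 and -1.12 for SH3 against EV (adjusted p = 0.808 and 0.612 by edgeR). With the number as a block ASXL2 was called in both (adjusted p = 0.00469 and 0.00407 by edgeR). For SH2 against EV, SH3 against EV, both shRNAs against EV and SH3 against SH2, edgeR without a block called 0 of 22 members, and 0% of all 14199 genes in each. The unadjusted p was under 0.05 for 0, 2, 1 and 2 members in that order. With the number as a block the members called were again 0 in each, against 0.282%, 0.416%, 1.1% and 0.106% of all genes, and the unadjusted p was under 0.05 for 1, 3, 3 and 3. DESeq2 gave an adjusted p to 10, 7, 6 and 22 members without a block and called 0 of them, against 0.168%, 0.207%, 0.457% and 0.0775% of all genes with one. With the block it gave one to 6, 5, 5 and 6 members and called 0, 2, 0 and 0, against 3.08%, 4.04%, 5.5% and 1.29% of all genes. The 2 members called, in SH3 against EV, were HIST2H2BE and HIST1H2BK. The EV libraries are shared by the comparisons with EV.

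HIST2H2BE was the closest to a difference. It was at 11.6, 8.81 and 6.04 CPM in EV 1, 13 and 25, at 12.2, 6.05 and 6.90 in SH2 and at 7.56, 4.38 and 4.62 in SH3. SH3 was below EV at each number, while SH2 was above EV in 2 of 3. SH3 minus EV was -0.68 (SE 0.15, 95% interval -1.01 to -0.35) on the log2 scale with the block, with an adjusted p of 0.0759 by edgeR and 0.0128 by DESeq2, and the adjusted p by edgeR was 0.971 without the block. SH2 minus EV was -0.10 (SE 0.15) and SH3 minus SH2 was -0.58 (SE 0.15, adjusted p = 0.185 by edgeR with the block). HIST1H2BK was at 14.1 to 16.04 CPM in SH3, 17.0 to 24.3 in EV and 18.1 to 24.2 in SH2, so the SH3 libraries lay below all 6 others, in 1 of the 22 members and in 0.697% of all tested genes. Its SH3 minus EV was -0.43 (SE 0.12), with adjusted p of 0.117 by edgeR and 0.0465 by DESeq2, both with the block. SH2 minus EV was -0.02 (SE 0.12).

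HIST1H2BG, an H2B gene with 94 counts in all, was at 0.412 to 0.578 CPM in EV, 0.277 to 0.313 in SH2 and 0.123 to 0.306 in SH3. It was the 1 member whose 6 knockdown libraries all lay below EV, a pattern shown by 2.61% of all tested genes. Its log2 difference for both shRNAs was -0.85 (SE 0.32, adjusted p = 0.18 by edgeR with the block). The other extremes had few reads. HIST2H2BC, annotated as a pseudogene, had the lowest difference for SH2 (-1.06) and was low for both shRNAs (-0.67), and HIST1H3B followed for SH2 (-0.83). For SH3 the lowest after HIST1H2BG (-1.02) was HIST1H2AI (-0.93), which shares 58.7% of its windows with HIST1H2AJ. The highest were HIST2H2AC and HIST1H3C, at 0.35 and 0.33 for SH2, 0.19 and 0.34 for SH3, and 0.27 and 0.33 for both. SH3 minus SH2 ran from -0.91 for HIST1H3H and -0.63 for HIST1H2AI to 0.78 for HIST2H2BC and 0.96 for HIST1H3B. None of these passed edgeR's test, with or without the block, and single libraries moved them. With the block and 1 library left out, HIST1H3B ran from -2.14 (without SH2 1) to -0.17 (without EV 13) for SH2 minus EV, and from 0.29 (without SH3 25) to 2.23 (without SH2 1) for SH3 minus SH2. HIST2H2BC ran from -1.34 (without SH2 1) to -0.62 (without EV 13) for SH2 minus EV, from -0.91 (without EV 1) to -0.24 (without EV 13) for both shRNAs, and from 0.39 (without SH3 25) to 1.23 (without SH3 13) for SH3 minus SH2. For SH3 minus EV, HIST1H2BG ran from -1.32 (without SH3 1) to -0.59 (without SH3 13) and HIST1H2AI from -1.20 (without EV 25) to -0.56 (without SH3 1). For SH3 minus SH2, HIST1H3H ran from -1.30 (without SH3 25) to -0.47 (without SH3 1) and HIST1H2AI from -1.06 (without SH2 13) to -0.27 (without SH3 1). None of these ranges crossed 0, but ranges of the highest members did. For SH2 minus EV, HIST1H3C ran from -0.24 (without SH2 1) to 0.81 (without EV 13). For SH3 minus EV, it ran from -0.058 (without SH3 25) to 0.83 (without EV 13). HIST2H2AC ran from -0.0028 (without SH3 25) to 0.44 (without SH3 1) for SH3 minus EV, and stayed above 0 for SH2 minus EV.

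Of the 4 members that were higher in number 1, the group values of HIST2H2BE stand above, and the other 3 were called by neither tool between the groups. With the block, HIST1H2AC was at -0.10 (SE 0.17) for SH2 minus EV and -0.20 (SE 0.17) for SH3 minus EV, HIST1H2BD at -0.08 (SE 0.18) and -0.21 (SE 0.18), and HIST1H1C at 0.12 (SE 0.19) and -0.19 (SE 0.19). In each group, number 1 was above the mean of 13 and 25 for these 4 members, which were picked by that difference. For HIST1H1C in EV, number 13 (8.03 CPM) was above number 1 (7.78 CPM). The ratio of number 1 to the mean of 13 and 25 was 1.77 in EV, 2.46 in SH2 and 2.72 in SH3 for HIST1H2AC, 1.61, 2.46 and 2.49 for HIST1H2BD, 1.56, 1.88 and 1.68 for HIST2H2BE, and 1.13, 1.41 and 1.87 for HIST1H1C. Whether these ratios differ between groups was not tested, since each rests on 1 library against 2.

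Over the 22 members, the median log2 difference with the block was -0.05 for SH2 minus EV, with 13 of 22 below 0. It was -0.23 for SH3 minus EV, with 17 of 22 below 0, against 0.01 over all genes in both. These medians turned with single libraries. With the block and 1 library left out, the SH3 median ran from -0.59 (without SH3 25, over the 24 members then tested, with 23 below 0 and 0 called by edgeR) to 0.02 (without EV 13), and the SH2 median from -0.17 (without SH2 1) to 0.14 (without EV 13). The summed level was 64.8 ± 12 CPM in EV, 64.3 ± 18.5 in SH2 and 53.2 ± 11.5 in SH3 (SD, n = 3 each), and the 3 ranges overlapped. Of the 24 processing genes, 20 S-phase genes, 16 chaperones and 12 replication-independent genes, edgeR called 0 in the 3 comparisons with EV. This held with and without the block. Over all tested genes edgeR called 0% without the block, and 0.282% (SH2), 0.416% (SH3) and 1.1% (both shRNAs) with it. With shares so small, a count of 0 is no result about these lists. DESeq2 calls were not counted for them.

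**Figure D4:**
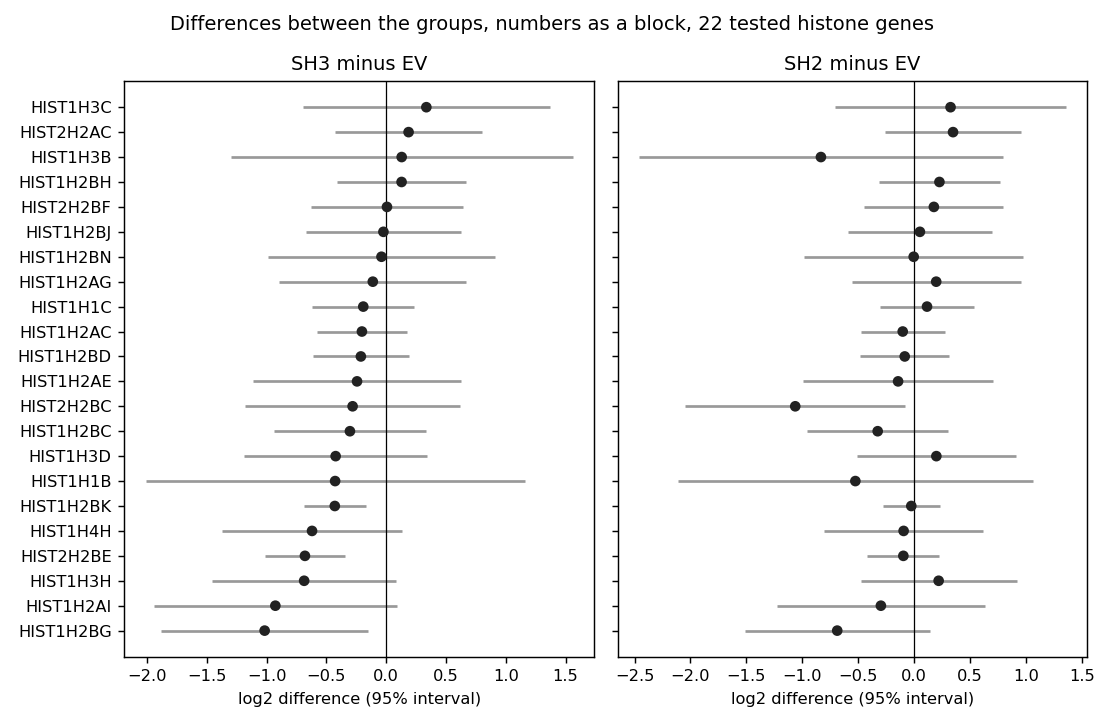
Log2 differences of the 22 tested histone genes for SH3 minus EV (left) and SH2 minus EV (right), with the number as a block and 95% intervals from the edgeR fit. No gene passed the adjusted threshold by edgeR, and 17 of 22 points on the left and 13 of 22 on the right lie below 0.

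The genes whose pattern over the 9 libraries was most like that of HIST1H2BK, the member with the highest mean, were MIR4707 (Pearson r of log2 CPM 0.928), ACBD7 (0.92), LIPE-AS1 (0.919), PRDX2 (0.912) and GALNTL6 (0.907). No histone gene was among them. HIST1H2BK had r = 0.837 with HIST2H2BE, 0.503 with HIST1H2AC and 0.0376 with HIST1H2BH. The libraries share numbers, groups and depth, and these values are a description.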

How the data were processed

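RNA was measured in 9 libraries, 3 each of EV, SH2 and SH3. The deposited files hold whole-number counts per RefSeq transcript, made by the authors from poly(A)-selected reads on hg19. The submitters' processing notes name STAR, featureCounts and DESeq2, without versions or settings. The extraction text in the labels describes sorted bone marrow, and the named cell line was taken as the source. Rows of a gene can count the same read, since all rows summed to 2.24 times the sum with 1 row per gene. Reads without strand from overlapping genes cannot be told apart.

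Counts were fitted with edgeR 4.0.16 (quasi-likelihood test, TMM) in R 4.3.3 after filterByExpr (minimum count 10, total 15), which left 14199 of 25680 genes, and p-values were adjusted by Benjamini-Hochberg over all of them at 0.05. Group comparisons used 1 coefficient per group with no block, and number comparisons used number and group. The label numbers pair the samples: deviations from group means correlated at 0.47 to 0.774 in all 9 same-number pairs and at -0.659 to 0.329 in the 18 others, so blocked values stand beside the results. The study's methods name 3 biological replicates per group and the labels give only numbers, so p-values measure the spread between these samples, which may be technical. No 2 libraries of a group agreed within sampling noise (chi-square 17.6 to 128 per degree of freedom). Intervals from the fit hold the spread between libraries, and floors (3 counts) cover counting error only. The fits were also run on simulated counts with known changes. For the group fit without a block, these counts held no differences between the numbers, unlike the data. That run therefore does not show how this fit performs here.

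The members, the gene lists and the tests were chosen with earlier results of these data known. Named were the 10 members with the highest mean, those called, the 2 highest and 2 lowest per comparison, those known for polyadenylated forms, those with more than 1 row, and up to 6 called genes per list. Members were matched through RefSeq (GRCh38.p14) to GENCODE v44 on GRCh37, which failed for HIST1H2BG, HIST1H2BF and HIST1H4F. Alternatives were DESeq2, RLE size factors, no filter, other rows, length and GC correction, the block, and each library left out.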

Additional observations from a re-analysis of the deposited data

How the results depend on the processing

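The calls of HIST1H2AC, HIST1H2BD and HIST2H2BE between number 1 and the rest kept their direction and passed under all 17 alternatives, and 3 to 6 histone genes were called there when a library was left out. HIST1H2BK had 5170 counts in all and HIST1H3B 63, and the causes of the changes were not tested. The replicate block was used because the numbers pair the samples. It called 40, 59, 156 and 15 genes for SH2 minus EV, SH3 minus EV, both shRNAs minus EV and SH3 minus SH2. Without the block edgeR called 0 in each, and no call of a histone gene changed. In the same order, DESeq2 called 22, 26, 56 and 11, DESeq2 with the block 369, 474, 629 and 155, the block with length and GC correction 4, 22, 23 and 23, and the block on genes with a length only 37, 48, 74 and 13 (added after seeing the data). DESeq2 with the block called 2 histone genes for SH3 minus EV. With 1 library left out, with or without the block, the counts ran from 0 to 1604, 0 to 368, 0 to 1755 and 0 to 257, with most calls when SH3 1 or SH3 13 was left out; leaving libraries out with the block was added after seeing the data. For number 25 minus 13, 833 genes became 304 without the group term and 50 to 2750 with a library left out, most without SH3 1, and 0 histone genes throughout.

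Some members, not only those close to 0, changed sign with a library left out. Between number 1 and the rest, HIST2H2AC ran from -0.30 to 0.27 (-0.023 with length and GC correction), HIST1H2BC from -0.20 to 0.11, HIST1H2BH from -0.38 to 0.18, HIST1H2BN from -0.50 to 0.38 and HIST1H3C from -0.82 to 0.17. For SH2 minus EV, HIST2H2BE ran from -0.45 to 0.17, HIST1H2BK from -0.18 to 0.13 and HIST1H3C from -0.24 to 0.81, and for SH3 minus EV HIST1H3C ran from -0.058 to 0.83 and HIST2H2AC from -0.0028 to 0.44. The summed level in number 1 was 1.39 times that in the rest, 1.52 times without HIST1H2BK and 1.37 times on plain totals.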
